A study of Mus musculus with 3 samples.

Results

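Annexins and their S100 partners were examined as a group of 10 genes, 8 annexins (Anxa1, Anxa2, Anxa3, Anxa4, Anxa5, Anxa6, Anxa7 and Anxa11) and 2 S100 genes (S100a10 and S100a11), taken by name from a table of 39304 rows. They were chosen as genes of calcium-dependent membrane binding proteins with known vascular roles, a rule that uses no measured value. Earlier results of these data were known when the choice was made. The donor was 1 male C57BL/6 mouse, wild type and 8 weeks old, whose kidney glomeruli (the filtering tufts) were broken up into single cells. A Fluidigm C1 microfluidic chip captured the cells and made cDNA of each, and qPCR for marker transcripts gave each its type. A pool was then made from the cDNA of 15 endothelial cells, the lining of the capillaries, and 15 mesangial cells, contractile cells that hold the tuft together, and 3 aliquots of it were sequenced. There is therefore 1 group, every SD is over the 3 aliquots (n = 3) and measures library construction and sequencing only, and no value has a check across mice. Since the cell types were pooled, which of them made a transcript cannot be told apart, nor can fewer cells of a type from less RNA per cell.

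Annexins bind membranes rich in acidic phospholipids when calcium rises, through a conserved core, and differ in the tail that precedes it. They take part in membrane repair, endocytosis, exocytosis and the control of clotting and inflammation at the vessel wall. S100 proteins are small calcium-binding dimers, and some join annexins into complexes that bridge membranes: S100a10 holds the tail of annexin A2, and S100a11 that of annexin A1.

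The coding starts of the annexins are shown because in Anxa1 and Anxa2 this stretch encodes the start of the tail held by S100a11 and S100a10. The other annexins are shown beside them for comparison. Each line gives the start codon in capitals and the next 12 codons, 5′ to 3′, from the GENCODE M21 transcript (GRCm38) with the longest coding sequence.
Anxa1: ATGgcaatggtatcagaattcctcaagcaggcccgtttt
Anxa2: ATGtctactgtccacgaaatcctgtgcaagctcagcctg
Anxa3: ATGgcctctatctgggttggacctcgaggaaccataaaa
Anxa4: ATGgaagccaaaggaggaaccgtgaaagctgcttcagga
Anxa5: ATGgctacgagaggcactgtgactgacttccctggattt
Anxa6: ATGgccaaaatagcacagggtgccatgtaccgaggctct
Anxa7: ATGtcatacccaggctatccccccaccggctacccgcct
Anxa11: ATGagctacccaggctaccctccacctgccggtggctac
The coding sequences ran from 957 bases in Anxa4 and Anxa5 to 2019 bases in Anxa6, whose protein carries a duplicated core. Anxa7 and Anxa11, whose proteins have long tails, had 485 and 503 codons, against 339 in Anxa2 and 346 in Anxa1. Over the 28 annexin pairs, identity of aligned coding bases ranged from 53.5% (Anxa2 and Anxa7) to 66.0% (Anxa5 and Anxa6). No window of 50 bases was shared between the transcripts of any pair of these annexins.

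The S100 genes differ in whether their protein still binds calcium, and the second calcium loop is shown for the 7 S100 genes detected in the pool. Capitals mark the codons of loop positions 1, 3, 5 and 12, which in a working loop supply ligands for calcium. The last of them usually encodes glutamate (GAA or GAG).
S100a10: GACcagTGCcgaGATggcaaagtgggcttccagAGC
S100a11: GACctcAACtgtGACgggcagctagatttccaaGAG
S100a1: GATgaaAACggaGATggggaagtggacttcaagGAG
S100a6: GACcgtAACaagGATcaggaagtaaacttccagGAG
S100a13: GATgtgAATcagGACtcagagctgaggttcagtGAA
S100a16: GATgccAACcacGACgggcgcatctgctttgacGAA
S100a4: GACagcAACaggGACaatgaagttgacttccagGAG
At loop position 3 S100a10 had TGC, while the other S100 genes shown had AAC or AAT. The last codon was GAA or GAG in 6 of these 7 genes and AGC in S100a10, whose protein is known not to bind calcium and to stay in its active shape without it. Their coding sequences were 50.2% to 65.5% identical over 21 pairs, with S100a11 and S100a16 the least alike and S100a6 and S100a4 the most.

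The pool held these transcripts at levels spread over more than 4 orders of magnitude, down to Anxa11, which rested on 5 reads. Without Anxa4 and Anxa11 the levels ran from 24.1 to 1803 FPKM. Levels are the deposited FPKM, which divide reads by gene length in kilobases and by library size in units of 1000000 reads, and a gene counts as detected with at least 1 FPKM in every aliquot. Of the 10 members 8 were detected, against 21.7% of all rows and 36.5% of protein-coding rows, and 5 were at or above 100 FPKM. Their median was 116 FPKM, against 10.6 FPKM over the 11142 genes above 0. Library totals were 9141422, 10427635 and 10976563 reads.

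**Figure D1:**
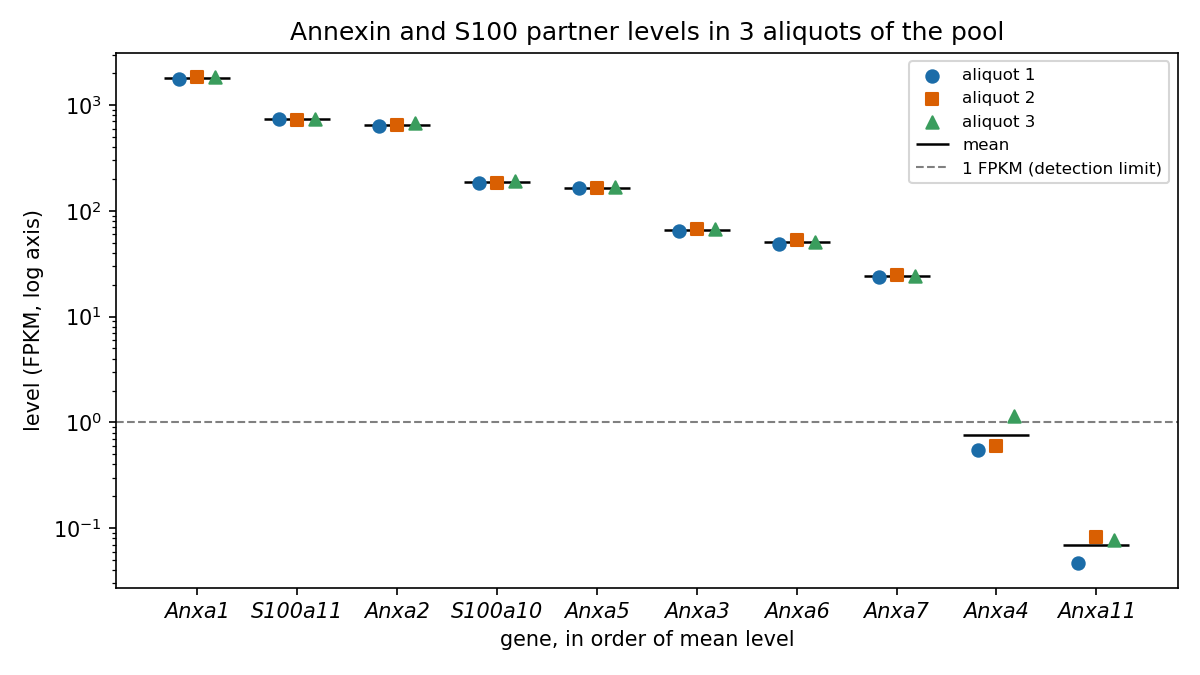
Levels of the 10 members (FPKM, log axis) in aliquots 1, 2 and 3, with the mean as a bar and the detection limit of 1 FPKM dashed. Anxa1 stood highest at 1803 FPKM, 8 genes lay above 10 FPKM in each aliquot, and Anxa4 and Anxa11 lay apart below them.

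Anxa1 (ENSMUSG00000024659, chromosome 19, 20373428 to 20390944, minus strand, GRCm38) encodes an anti-inflammatory annexin that glucocorticoids induce. It had 1754, 1831 and 1825 FPKM in aliquots 1, 2 and 3, a mean of 1803 ± 42.4 FPKM and rank 21 among genes above 0. Aliquot 1 was the lowest and the others lay close together. Anxa1 made up 65.2% ± 0.414 of the FPKM summed over the 8 annexins as deposited. With other gene lengths Anxa1 held 46.3% to 52.9% if its deposited length was 651 bases, which is not settled. Its share of the recovered annexin reads was 47.1% ± 0.358, or 64.1% ± 0.334 if its reads and those of Anxa4 are doubled, a factor that the values leave unresolved.

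Anxa2 (ENSMUSG00000032231, chromosome 9, 69453620 to 69491795, plus strand) encodes the partner of S100a10, which gathers plasminogen and its activator on the endothelial surface. It had 636, 647 and 679 FPKM in aliquots 1, 2 and 3, a mean of 654 ± 22.5 FPKM and rank 94. Aliquot 3 was the highest. Anxa1 and Anxa2 together held 88.8% ± 0.0662 of the annexin FPKM as deposited. The share of Anxa2 alone was 23.7% as deposited. It was 24.5% to 33.8% with the other gene lengths that gave the lower Anxa1 shares above.

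Anxa5 (ENSMUSG00000027712, chromosome 3, 36448923 to 36475894, minus strand) encodes the annexin that covers exposed phosphatidylserine and shields it from clotting factors. Its level was 164, 166 and 167 FPKM in aliquots 1, 2 and 3, with a mean of 166 ± 1.97 FPKM and the smallest coefficient of variation of the detected members, 1.19%. Anxa3 (ENSMUSG00000029484, chromosome 5, 96793339 to 96845966, plus strand), linked to endothelial migration and vessel growth, had 64.2, 67.6 and 68.1 FPKM and a mean of 66.6 ± 2.12 FPKM. Anxa6 (ENSMUSG00000018340, chromosome 11, 54979108 to 55033445, minus strand), which acts in cholesterol traffic and calcium handling at the plasma membrane, had 49.1, 53.5 and 51.2 FPKM and a mean of 51.3 ± 2.19 FPKM. All 3 were lowest in aliquot 1.

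Anxa7 (ENSMUSG00000021814, chromosome 14, 20455260 to 20480133, minus strand), also called synexin, promotes membrane fusion and was the lowest of the detected members. It had 23.8, 24.5 and 24.1 FPKM in aliquots 1, 2 and 3 and a mean of 24.1 ± 0.382 FPKM. The next member in the order, Anxa4, lay 31.4-fold lower as deposited and 40.3-fold to 119-fold lower with the other gene lengths tried.

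Anxa4 and Anxa11 were not detected. Anxa4 (ENSMUSG00000029994, chromosome 6, 86736840 to 86793584, minus strand), an annexin abundant in epithelia, had 0.551, 0.604 and 1.15 FPKM, from 4, 5 and 10 recovered reads, or 8, 10 and 20 if a common factor of 2 was missed. Aliquot 3 alone passed 1 FPKM. The 19 reads have an exact 95% Poisson interval of 11.4 to 29.7 reads, and 38 reads one of 26.9 to 52.2 reads, for counting error only. A length of 2382 bases, also below the longest annotated Anxa4 transcript of 2623 bases, would give more reads still. It was not followed up. With genes of at least 10 reads admitted, Anxa4 was not called in the chi-square test of aliquots (adjusted p = 0.77). With doubled reads it passed the filter of 30 reads and was not called either (chi-square test, adjusted p = 0.55). Anxa11 (ENSMUSG00000021866, chromosome 14, 25842156 to 25886804, plus strand), which ties RNA granules to lysosomes, had 0.0466, 0.0817 and 0.0776 FPKM. These values are 1, 2 and 2 reads, 5 in all, with an interval of 1.62 to 11.7 reads.

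The low Anxa11 level has a limit of its own. Of the 50-base windows of its transcript, 28.9% also occur in transcripts of other annotated genes, the pseudogenes Gm2260 and Gm2274 further along chromosome 14 and the antisense gene Anxa11os. All of these were listed at 0 in each aliquot, and Anxa11os shares 113 exon bases with Anxa11. Whether the counting used strand or dropped reads that match several genes is not given in the sources used here, and the part of these overlaps in the low level was not tested.

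The S100 partners were both among the higher members. S100a11 (ENSMUSG00000027907, chromosome 3, 93520488 to 93526287, plus strand) had 732, 722 and 741 FPKM in aliquots 1, 2 and 3, a mean of 732 ± 9.77 FPKM and rank 78. S100a10 (ENSMUSG00000041959, chromosome 3, 93555080 to 93564643, plus strand) had 185, 183 and 190.4 FPKM, a mean of 186 ± 3.69 FPKM and rank 597. Both were lowest in aliquot 2, unlike the annexins. Reads of S100a11 may not all be told apart from those of copies, and whether such reads were shared or lost is not given. Of its 50-base windows 41.1% occur in pseudogene transcripts, all of these in Gm12854, which had 8.10, 7.10 and 10.4 FPKM. S100a10 shared no window with another gene. The named pseudogene S100a11-ps on chromosome 12, 93.7% identical over 303 bases, was listed at 0.

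In order of the deposited mean level the members were Anxa1, S100a11, Anxa2, S100a10, Anxa5, Anxa3, Anxa6, Anxa7, Anxa4 and Anxa11. The aliquot values of neighbours in this order did not overlap. The smallest steps were S100a11 over Anxa2, 1.12-fold (732 against 654 FPKM, a gap of 77.3 FPKM with SDs of 9.77 and 22.5), and S100a10 over Anxa5, 1.12-fold (186 against 166 FPKM). These gaps exceed the spread between aliquots, but FPKM of different genes also depends on the gene length used.

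The first place depends on the Anxa1 length, which the values do not settle. They imply 651 bases or 1302 bases, while its longest annotated transcript has 1674 bases. Rescaled to the longest transcript, the Anxa1 mean was 701 FPKM if the length was 651 bases and 1403 FPKM if it was 1302 bases. S100a11, whose single transcript has 511 bases, stayed at 732 FPKM, so Anxa1 lost the first place only with the shorter length. Rescaled to the mean transcript length, Anxa1 had 1271 or 2541 FPKM and stayed first. Anxa2 fell to 325 FPKM with its longest transcript, a retained-intron form of 2280 bases, and to 512 FPKM with its longest coding transcript. The longest coding transcript and the length of 1302 bases were settings chosen after seeing the data. Anxa2 kept place 3 in each setting, and Anxa3, Anxa6, Anxa7, Anxa4 and Anxa11 kept places 6 to 10. Anxa5 and S100a10 changed places with the mean length (295 and 186 FPKM).

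**Figure D2:**
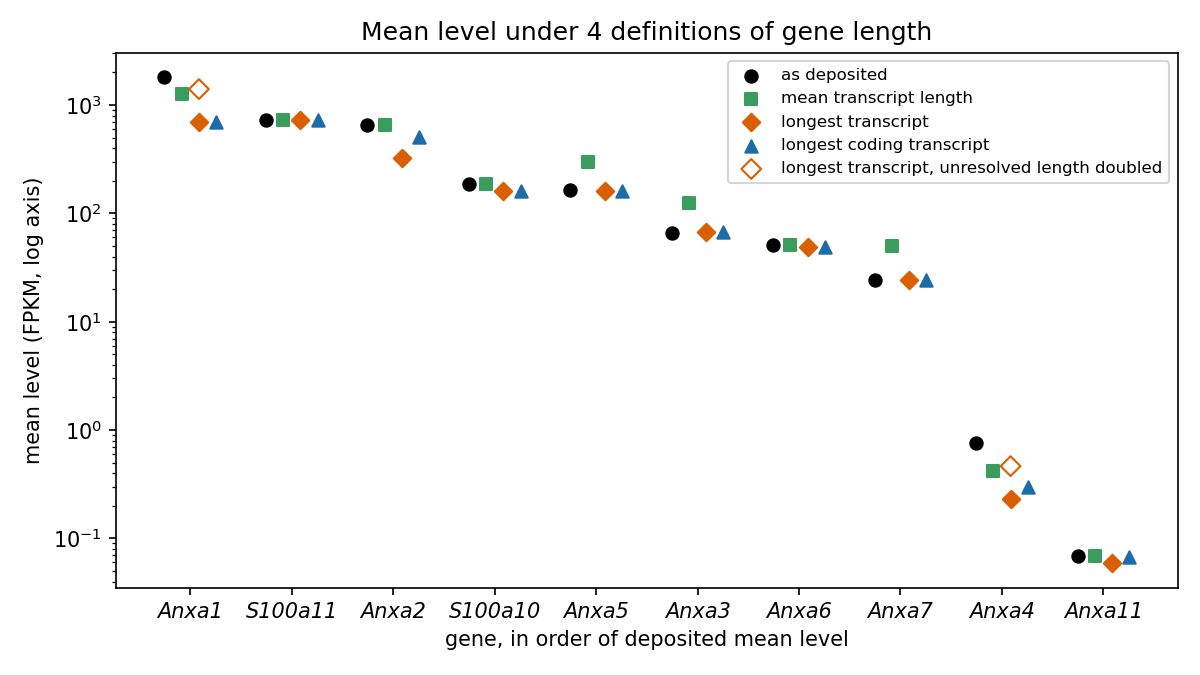
Mean level of each member (FPKM, log axis) as deposited and rescaled to the mean, the longest and the longest protein-coding annotated transcript; open diamonds double the unresolved lengths of Anxa1 and Anxa4. Anxa1 is at 1803 FPKM as deposited and, with its longest transcript, at 701 FPKM (length 651 bases) or 1403 FPKM (1302 bases), on either side of S100a11 at 732 FPKM.

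Levels of partners were set side by side as log2 ratios of FPKM within each aliquot, with no test. S100a10 lay below Anxa2 by a log2 ratio of -1.81 ± 0.0270, that is, 0.285 S100a10 FPKM for each Anxa2 FPKM, and by -1.02 with the longest transcripts. S100a11 lay below Anxa1 with -1.30 ± 0.0410, and with the longest transcripts the ratio was 0.061 if the Anxa1 length was 651 bases and -0.94 if it was 1302 bases. S100a11 and Anxa2 were the closest of the 15 pairs, with 0.16 ± 0.0386, but 1.17 with the longest transcripts. Among annexins, Anxa2 stood above Anxa5 by 1.98 ± 0.0347, while Anxa6 and Anxa3 stood below it with -1.69 ± 0.0527 and -1.31 ± 0.0300. The Anxa2 to Anxa5 ratio was 1.02 with the longest transcripts and 1.15 with the mean length, and that of Anxa6 to Anxa5 was -2.53 with the mean length. These are ratios of RNA and say nothing of the proteins.

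The aliquots were compared to see which members varied beyond counting error. Reads were recovered from the steps of the FPKM values and tested by chi-square against the library totals, with Benjamini-Hochberg adjustment over 9120 genes of at least 30 reads. Of the 8 members tested 1 was called at an adjusted p of 0.05, against 1.09% of all genes tested and 10.5% of the 506 genes with at least 10000 reads. Anxa1, Anxa2 and S100a11 were in that deep class.

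Anxa2 was the called member. It had 6584, 7636 and 8443 reads in aliquots 1, 2 and 3, a log2 ratio to the expected reads of -0.04, -0.02 and 0.05 (chi-square test, adjusted p = 0.018). The call in the chi-square test ended without aliquot 1 (adjusted p = 0.38) and without aliquot 3 (adjusted p = 0.81), and held without aliquot 2 (adjusted p = 0.011). These 2 losses were unlike. Before adjustment the chi-square p of Anxa2 was 0.0019 without aliquot 1 and 0.32 without aliquot 3. Without aliquot 1 only 2 of the 8847 genes tested were called. Anxa1 had 10441, 12429 and 13038 reads and log2 ratios of -0.04, 0.02 and 0.01, and was not called (chi-square test, adjusted p = 0.11). If its reads carry an unresolved common factor of 2, which a length of 1302 bases would give, it is called (chi-square test, adjusted p = 0.00099). For Anxa3, Anxa5, Anxa6, Anxa7, S100a10 and S100a11 the adjusted p of the chi-square test was 0.58 to 0.97.

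**Figure D3:**
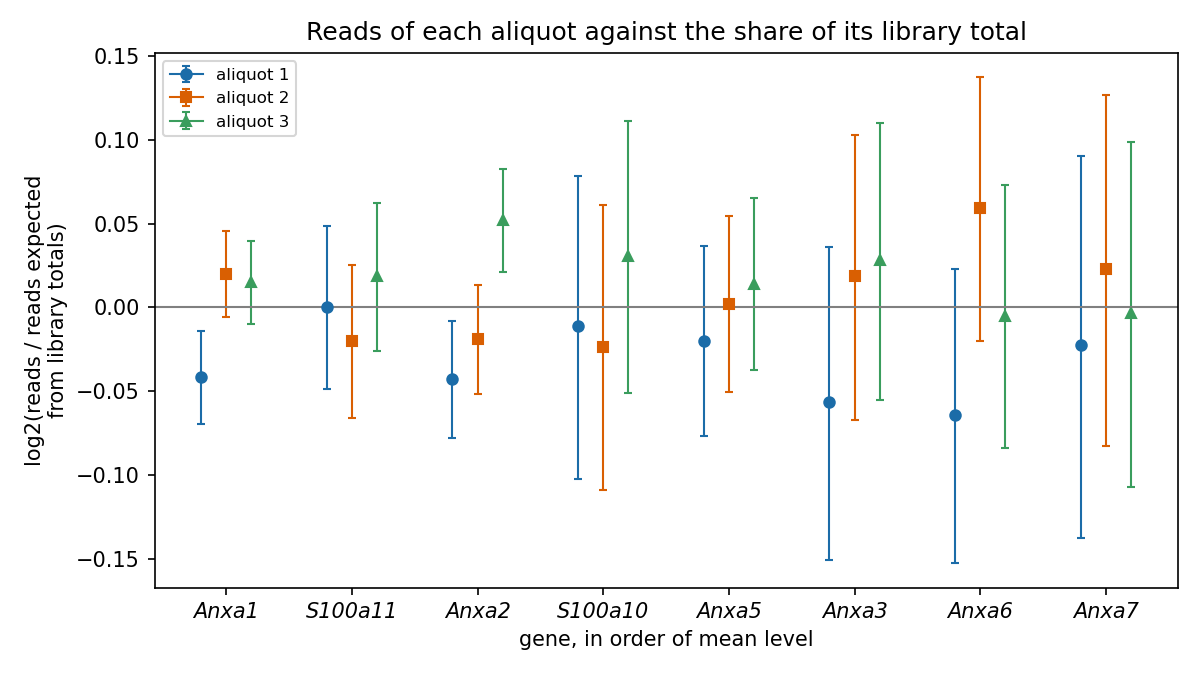
Log2 ratio of each aliquot's reads to the reads expected from its library total, for the 8 detected members, with exact 95% Poisson intervals. For Anxa1 the interval of aliquot 1 lies below 0, for Anxa2 that of aliquot 1 lies below and that of aliquot 3 above 0, and all other intervals include 0.

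All 6 detected annexins had their lowest FPKM in aliquot 1, against 39.1% of the 8537 detected genes, while neither S100 member did. The shifts were small, at most 4.28% as a coefficient of variation among detected members, against a median of 3.50% over all genes of at least 10 FPKM. Aliquot 1 was also the smallest library and had 4.39% of its total in mitochondrial reads, against 4.20% and 4.21% in aliquots 2 and 3. With mitochondrial reads left out of the totals the Anxa2 call stayed (chi-square test, adjusted p = 0.022). With expected shares from median-ratio size factors of the recovered reads it only just passed the threshold of 0.05 (chi-square test, adjusted p = 0.048). Cell type markers also differed between aliquots. Of the 7 mesangial markers 5 were highest in aliquot 1. The other 2 were lowest there, Serpine2 with 1874, 1920 and 1892 FPKM and Sfrp2 with 621, 645 and 631 FPKM. Together the 7 summed to 9044, 8689 and 8601 FPKM in aliquots 1, 2 and 3, and most of that fall was in Gata3. Gata3 had 3232, 2877 and 2867 FPKM (chi-square test, adjusted p = 6.5e-53) and Rgs5 1609, 1568 and 1537 FPKM (chi-square test, adjusted p = 9.4e-07). Of the 8 endothelial markers 4 were lowest in aliquot 1, while 3 were highest there: Kdr, Pecam1 and Cdh5. All 8 summed to 2564, 2587 and 2615 FPKM, and most of that rise was in Emcn. Emcn had 1260, 1283 and 1304 FPKM (chi-square test, adjusted p = 0.013), while Cdh5 was highest in aliquot 1 with 34.9, 30.5 and 29.9 FPKM (chi-square test, adjusted p = 0.020). The 4 smooth muscle markers summed to 144, 151 and 156 FPKM, and the podocyte markers to 290.3, 273 and 281 FPKM. The part of library size and of these markers in the low annexin values was not tested.

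The rest of the annexin family was listed at 0: Anxa8, Anxa9, Anxa10 and Anxa13 had that value in every aliquot, and 6 of the 12 mouse annexin genes looked up were detected. A value of 0 in this table is reported only as listed, since genes that most cells use, such as the mitochondrial mt-Nd4l and the splicing factor Srsf4, were at 0 too. Of 16 S100 genes 7 were detected and the other 9 were listed at 0. The counts of both families stand beside a detected share of 36.5% over all protein-coding rows. S100a1, a calcium sensor of muscle and endothelium, had 213 ± 0.886 FPKM, S100a6, a known partner of annexin A11, 202 ± 5.55 FPKM, S100a13, which helps export growth factors without a signal peptide, 83.6 ± 3.82 FPKM and S100a16 34.0 ± 2.21 FPKM. S100a4, a marker often used for fibroblasts, had 1.72, 1.94 and 2.46 FPKM from 28 reads. The neutrophil genes S100a8 and S100a9 and the nerve and epithelial genes S100b and S100a14 were at 0.

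All 7 detected S100 genes lie on chromosome 3, which holds 13 of the 16, and the 3 on other chromosomes were at 0. Over all protein-coding rows 36.5% were detected. There S100a11 and S100a10 form a block of their own, 28.8 kb apart and 2.82 Mb from the other 11. Within that first block of 185 kb, detected genes and genes at 0 were interleaved: S100a14 at 0 lies between S100a13 and S100a16, and S100a5 at 0 between S100a4 and S100a6. S100a7a, S100a8 and S100a9 at its far end were all at 0.

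**Figure D4:**
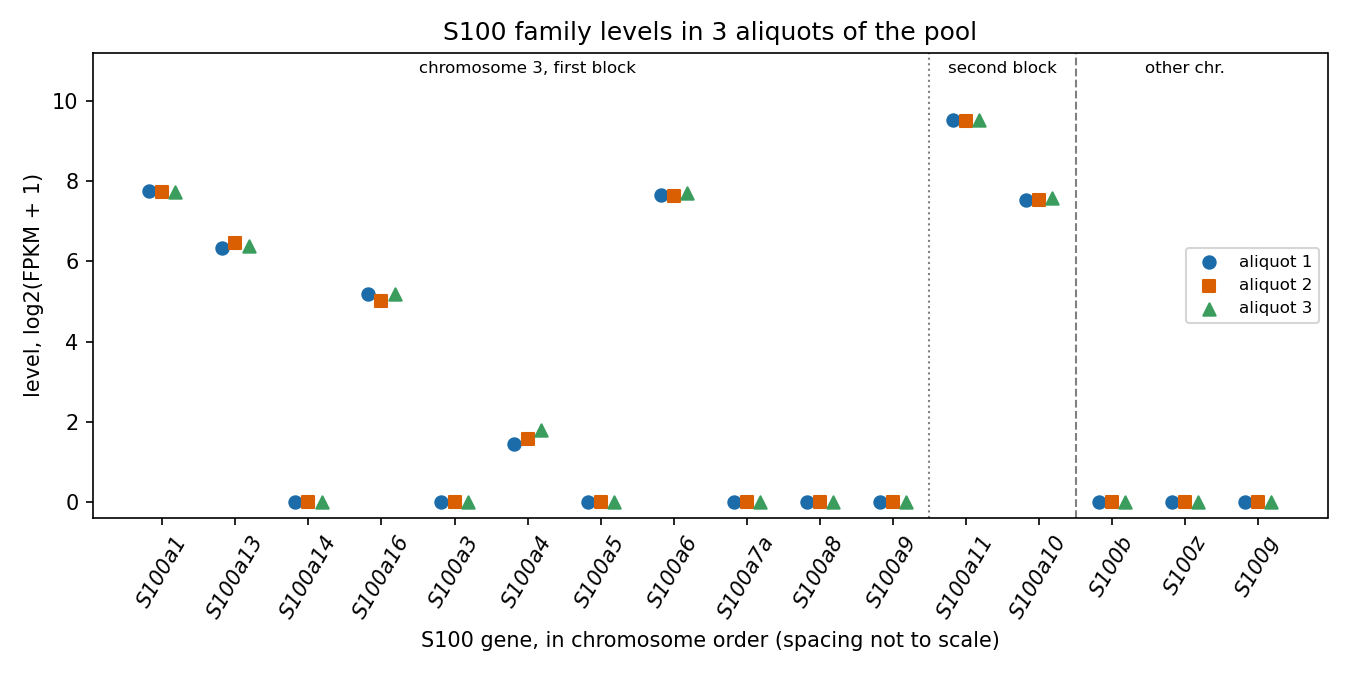
Levels of 16 S100 genes as log2(FPKM + 1) in 3 aliquots, in chromosome order with spacing not to scale; lines part the first block of chromosome 3, the second block and other chromosomes. S100a11 and S100a10 in the second block have 732 and 186 FPKM, and 9 genes lie at 0.

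Genes that act with the members were counted in lists. For comparison, 21.7% of all rows and 36.5% of protein-coding rows were detected. Of 9 genes of plasminogen activation, in which annexin A2 and S100a10 serve as a surface platform, 7 were detected with a median of 23.1 FPKM. Plat, the tissue plasminogen activator, had 384 ± 0.654 FPKM, a log2 ratio of -0.77 ± 0.0485 to Anxa2. The plasminogen receptor Plgrkt had 95.6 ± 0.874 FPKM, the glycolytic enzyme and plasminogen binder Eno1 61.5 ± 2.66 FPKM and the clearance receptor Lrp1 33.9 ± 1.21 FPKM. Plg, the plasminogen gene made chiefly by liver, and its inhibitor Serpinf2 were listed at 0.

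The receptors of annexin A1 were not detected. Fpr1, Fpr2 and Fpr3, formyl peptide receptors of leukocytes, were all listed at 0 in each aliquot, beside 1803 FPKM of Anxa1.

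Among 15 genes of membrane repair and its scaffold 11 were detected, with a median of 21.4 FPKM. The caveola genes Cav1 (204 ± 5.71 FPKM) and Cavin1 (129 ± 0.611 FPKM) were the highest, followed by Ahnak (91.8 ± 2.23 FPKM), a giant scaffold that binds annexin A2 with S100a10, and Vps4b (85.4 ± 2.56 FPKM), an ATPase of membrane scission. The ferlin Myof had 0.0610 ± 0.0419 FPKM, from 13 reads, the protease gene Capn1 had 0.329 ± 0.0232 FPKM, and Ahnak2 and Trim72 were listed at 0. In the chi-square test 1 of the 34 genes tested over all lists was called, against 1.09% of all genes tested, and 0 of the 22 outside this list. It was the endocytic gene Ehd1 with 14.8, 18.1 and 21.4 FPKM (chi-square test, adjusted p = 0.043), and it was named after its values were seen.

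Of 4 genes of the penta-EF-hand family, calcium-binding proteins that include partners of annexins A7 and A11, 2 were detected. Sri (sorcin), which binds annexin A7, had 274 ± 1.77 FPKM, a log2 ratio of 3.50 ± 0.0321 to Anxa7, which was 2.49 with the longest transcripts and 2.46 with the mean length, or 3.49 and 3.46 if its unresolved length is doubled. Pdcd6, which binds annexin A11, had 111 ± 3.11 FPKM, while Anxa11 rested on 5 reads. Pef1 had 0.286 ± 0.0661 FPKM and Gca was listed at 0. Of 9 genes that expose or retain phosphatidylserine, the ligand of annexin A5, 8 were detected with a median of 31.8 FPKM. They were led by Tmem30a, a subunit of flippases (138 ± 0.465 FPKM), Plscr1 (114 ± 2.06 FPKM), Plscr3 (58.6 ± 2.04 FPKM) and the scramblase Ano6 (55.6 ± 2.27 FPKM), and Xkr8, the scramblase of apoptotic cells, had 0.911 ± 0.227 FPKM.

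**Figure D5:**
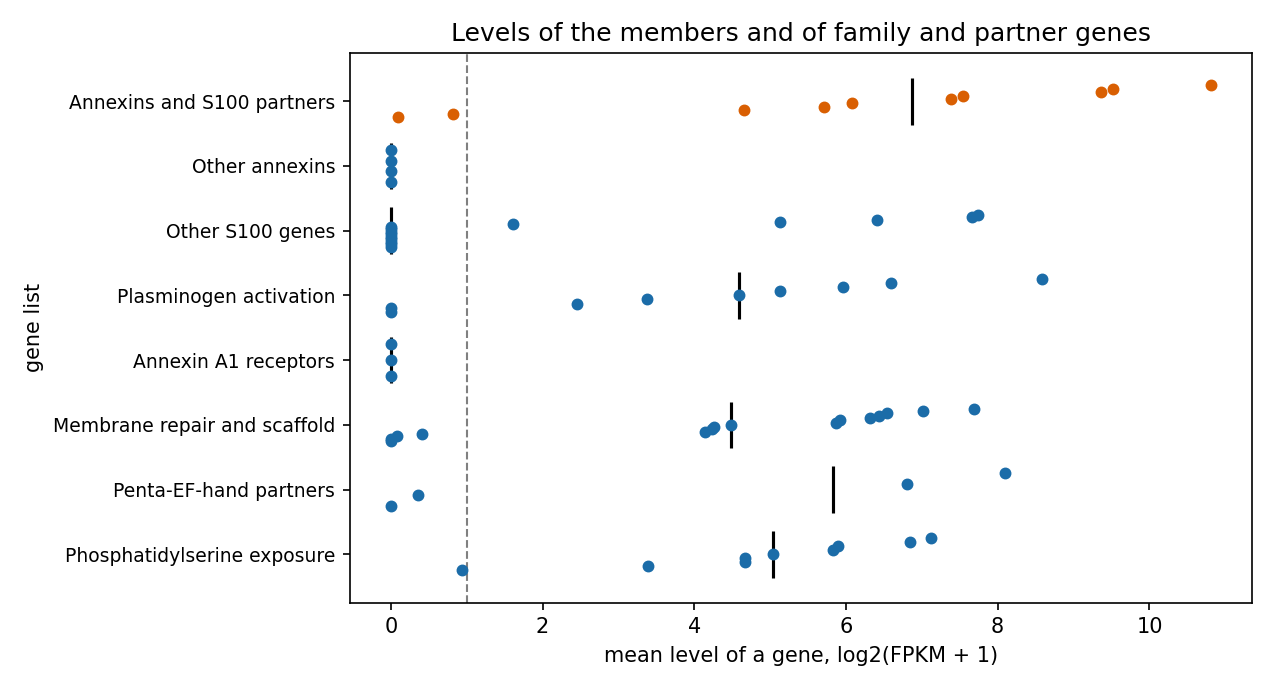
Mean level of each gene, as log2(FPKM + 1), for the 10 members and 7 lists of related genes; the black bar is the list's median FPKM on this scale and the dashed line marks 1 FPKM. The members' median is 116 FPKM, the medians of plasminogen activation, membrane repair and phosphatidylserine exposure are 23.1, 21.4 and 31.8 FPKM, and the other annexins and annexin A1 receptors lie at 0.

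Markers of the labelled cells and of other cells were read beside these levels, with 36.5% of all protein-coding rows detected. All 7 mesangial and all 8 endothelial markers were detected, with the sums given above. Of 7 podocyte markers 5 were detected, and 3 of 4 smooth muscle markers, with Cnn1 at 0. Of 8 macrophage and neutrophil markers 1 was detected, Fcer1g with 68.0 ± 1.74 FPKM, while Ptprc, Csf1r, Adgre1 and Cd68 were listed at 0. Parietal epithelium had 0 of 6 and tubule 0 of 4 markers detected, with Cldn1, Krt8, Lrp2 and Umod at 0. The part of podocyte and smooth muscle transcripts in the annexin levels was not tested.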

How the data were processed

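RNA sequencing of 3 aliquots of 1 cDNA pool was analysed. The authors deposited FPKM, per the labels, and per the submitters' processing notes TopHat2 2.0.12, HTSeq 0.6.1 and GRCm38 were used; what gene length was used, which annotation release and with which settings is not given in the sources used here. Columns were matched to samples by title. Coordinates, lengths and sequences came from GENCODE M21, which may not be the authors' release, and a protein table was not used here, so the planned protein comparison was made on coding sequences instead.

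Whole reads were recovered from the steps of the values. Each library total is the commonest solution among genes below 0.5 FPKM if these hold 1 read and have their mean transcript length. The smallest whole length giving whole reads in all aliquots (within 0.0001, or 2e-08 of the reads above 5000 reads) was taken, or a multiple within 1 base of the mean transcript length. This solved all 11142 genes above 0, and their reads add up to 96.7% of the totals. A common factor of reads cannot always be resolved. The chi-square test (scipy 1.17.1) had 2 degrees of freedom and treats amplified reads as independent, so it covers counting error only. The deposited unit is FPKM, so no count model was run. Recovery was checked on simulated reads in which every gene had its mean transcript length. That check does not cover genes with another length, such as Anxa1. The chi-square test was run on the simulated reads themselves, not on reads recovered from them. Shared windows were exact matches of 50 bases on either strand to GENCODE transcripts; coding sequences were aligned globally with biopython 1.88.

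The 10 members, 7 lists and 15 pairs were chosen with earlier results of these data known. All members were named, with the top detected genes of each list and its lowest undetected ones (at most 4 of either), both genes of a pair and the genes nearest in level to the highest and lowest member; S100 genes beyond these, Ehd1 and genes that mark a limit were chosen after their values were seen. Alternatives were other detection limits (0.5 and 5 FPKM, or a mean of 1), pseudocounts of 0.1 and 1 FPKM, other gene lengths, other read filters and scalings, and leaving out each aliquot.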

Additional observations from a re-analysis of the deposited data

How the results depend on the processing

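The median FPKM of the members, 116 as deposited, was 114 with either longest transcript and 156 with the mean transcript length, also with unresolved lengths doubled. The log2 ratio of S100a11 to Anxa1, -1.30 as deposited, reversed to 0.061 with the longest annotated and with the longest protein-coding transcripts if the Anxa1 length was 651 bases, but was -0.94 if it was 1302 bases. That of S100a10 to Ahnak, 1.02, reversed to -0.018 with the mean length; in both the new gene length is the only change. The number of members beyond sampling noise, 1 in all aliquots, ranged from 0 to 1 when an aliquot was left out, where fewer samples enter the test, and was 2 with the reads of Anxa1 and Anxa4 doubled, an alternative added after seeing the data. The adjusted chi-square p of Anxa2 ranged from 0.011 to 0.81 and that of Anxa1 from 0.00099 to 0.98 over all alternatives. Detection counts of members and lists stayed within 1.5 times under every limit and left-out aliquot. A pseudocount of 1 FPKM moved the log2 ratio of Anxa11 to Anxa7, -8.50 without one, to -4.56. Levels of Anxa4 and Anxa11 are limited by 19 (or 38, or more with a still longer length) and 5 reads. No paired analysis was possible because all aliquots form 1 group.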

Other observations

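For scale, the protein-coding genes nearest to Anxa1 by Euclidean distance of log2(FPKM + 1) over the 3 aliquots were the prostaglandin synthase and co-chaperone gene Ptges3 (1827 ± 52.7 FPKM, distance 0.11) and the mesangial gene Serpine2 (1895 ± 22.9 FPKM, distance 0.13). The nearest to Anxa11 were Plekhg3 (0.0650 ± 0.0182 FPKM) and Birc5, a cell division gene (0.0753 ± 0.0210 FPKM). A distance over 3 aliquots of 1 pool measures level alone.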
